A study of Mus musculus with 8 samples.

Results

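The MHC class II genes described here are H2-Aa, H2-Ab1, H2-Ea, H2-Eb1, H2-DMa, H2-DMb1, Cd74 and Ciita, measured in mouse liver. They were taken by name, with every probe set that the platform annotation pairs with exactly 1 of them. This gave 13 probe sets of 7 of the 8 genes, out of 20380 probe sets paired with a single gene and 12393 genes in all. H2-DMb1 had no probe set of its own, because the platform annotation pairs its probe sets also with H2-DMb2. Livers came from 4 TrxR1/Gsr-null mice and 4 wild-type (WT) mice, all female, 4 weeks old and labelled with the strain C57BL/6J, and were taken in the late morning. TrxR1 (gene Txnrd1) reduces cytosolic thioredoxin with NADPH, and Gsr reduces glutathione disulfide. By the labels these livers are null for both, but the deleted exons, the cells that lack them and the method of deletion are not stated. Each liver was hybridised to 1 Affymetrix 3′ array, and the series title names the response driven by the transcription factor Nrf2.

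MHC class II molecules present peptides from endosomes to CD4+ T cells. An alpha and a beta chain pair at the cell surface, as H2-Aa with H2-Ab1 and H2-Ea with H2-Eb1. Cd74, the invariant chain, fills the groove during assembly, H2-DM exchanges its remnant for peptide, and Ciita is the coactivator that switches the promoters on. In liver these genes are known from dendritic cells, B cells, Kupffer cells and sinusoidal endothelium rather than from resting hepatocytes. C57BL/6 mice are known to make no E alpha chain, because their H2-Ea promoter is deleted, and the RefSeq annotation of the C57BL/6J genome lists H2-Ea as a transcribed pseudogene.

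The promoters of class II genes share the X box, bound by the RFX complex, and the Y box, bound by NF-Y, and Ciita is recruited by the proteins on them. The 3 stretches below are from the H2 members whose RefSeq promoter matched the search letters, so they share the boxes by selection. The factors that bind these boxes were measured on the same arrays. The stretches come from the RefSeq promoter table of build GRCm38.p6, read 5′ to 3′ along the gene, with the X box and then the Y box in capitals.
H2-Aa: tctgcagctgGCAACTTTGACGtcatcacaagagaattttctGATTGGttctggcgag
H2-Eb1: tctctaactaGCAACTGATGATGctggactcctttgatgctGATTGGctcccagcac
H2-DMb1: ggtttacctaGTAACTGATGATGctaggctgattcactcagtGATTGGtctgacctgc
The H2-Aa stretch is chr17:34287857-34287914 on the minus strand, the H2-Eb1 stretch chr17:34305766-34305822 on the plus strand and the H2-DMb1 stretch chr17:34153087-34153144 on the plus strand, all upstream of the annotated start. The X box began 81 bases before the start of H2-Aa, 91 before that of H2-Eb1 and 94 before that of H2-DMb1, and 20, 18 and 19 bases separated it from the Y box. The letters searched on both strands were GNAAC, then 2 or 3 further bases and TGANG for the X box and GATTGG for the Y box, written after these promoters had been read. Of 32851 promoter windows of 300 bases, 1.81% held the X letters, 16.1% the Y letters and 0.0578% (19 windows of 18 genes) an X box followed by a Y box within 30 bases. H2-DMa had windows without this arrangement. H2-Ab1, H2-Ea and Ciita had no window, and Cd74 was not looked up. The letters are those of the reference genome and not of these animals, and a match is a description, not a bound site.

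Values are log2 expression after GCRMA, and a difference is the mean of the 4 TrxR1/Gsr-null livers minus the mean of the 4 WT livers. A difference was called at a limma p below 0.05 after Benjamini-Hochberg adjustment over 22626 probe sets. The low-value limit, 3.03, is the 40th percentile of the probe sets' means. The array medians ranged from 3.56 to 3.78, and interquartile ranges were 4.31 to 4.44 log2 units except for WT replicates 3 and 4, at 3.97 and 3.74, so results are also given without that pair where this ends a call. On the targeted genes, both Gsr probe sets were lower in TrxR1/Gsr-null livers (differences -1.17 and -1.15, adjusted p = 0.0225 and 0.00337), and the Txnrd1 probe set above the limit was higher (difference 2.11, adjusted p = 0.000156). Whether those probe sets lie in the deleted exons is not stated, so they do not settle the label.

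Of the 13 class II probe sets, 1 of 2 for H2-Aa and 1 of 3 for H2-Ea were called higher in TrxR1/Gsr-null livers, at about 4-fold, and none was called lower. Those of H2-Ab1, H2-Eb1, H2-DMa, Cd74 and Ciita were not called in either direction. Over all probe sets 2.09% were called higher and 0.888% lower. Of the 13 differences 10 were positive, and the share over all probe sets was not counted. The 10 include both Ciita sets (0.02 and 0.03), under the low-value limit on every array, and repeat sets of the same gene. The median difference of the 13 was 0.31, beside -0.001 over all probe sets. That median moved with the livers used. It was 0.087 without WT replicates 3 and 4, 0.095 with replicates 3 and 4 only, and 0.17 after a further quantile normalization. Leaving out TrxR1/Gsr-null replicate 2, 3 or 4 gave 0.15, 0.58 or 0.14, and leaving out replicate 3 of WT gave 0.15. Every TrxR1/Gsr-null value lay above every WT value in 3 of the 13, beside 6.83% of all probe sets, and the opposite held in 0 of the 13, beside 4.37%. In 6 of the 13 all 8 arrays exceeded the low-value limit, in 3 no array did, and 10 would pass a filter on low values.

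**Figure D1:**
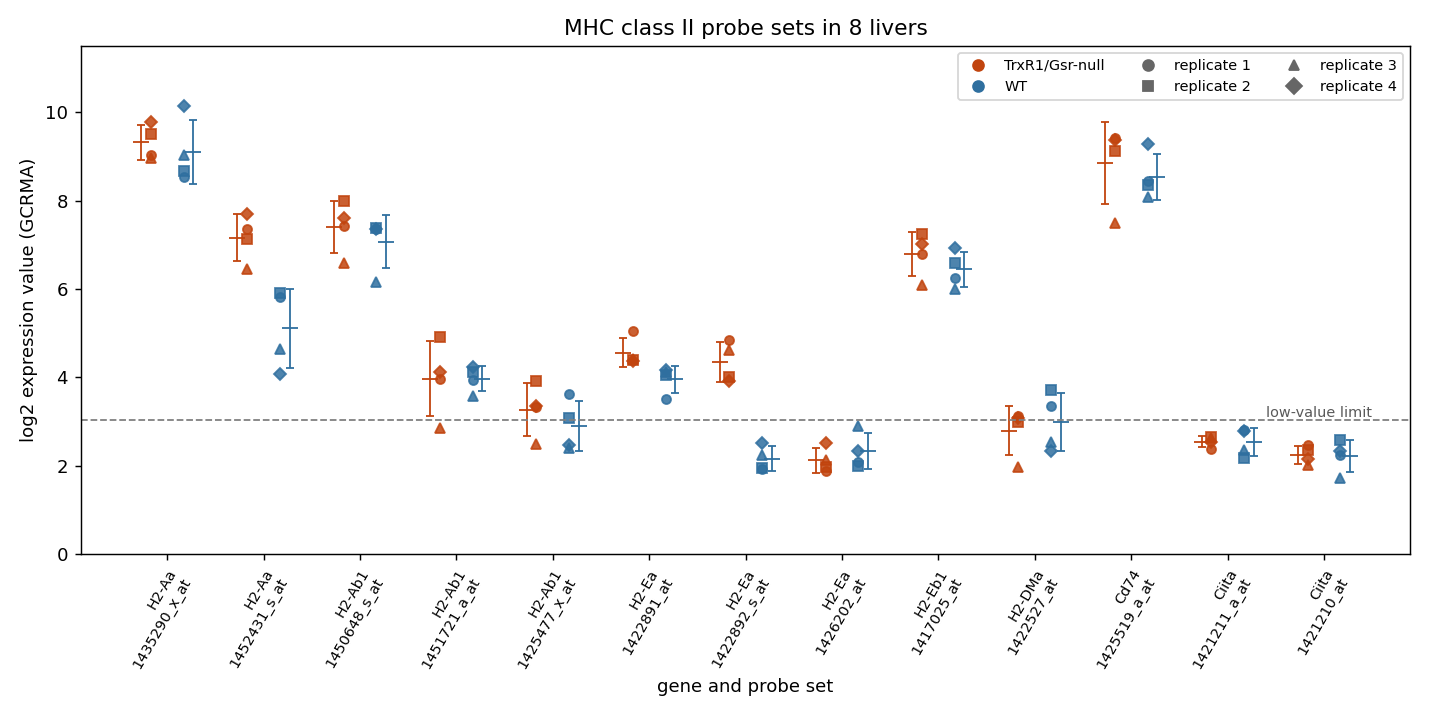
Log2 expression values (vertical axis) of the 13 class II probe sets (horizontal axis) in 4 TrxR1/Gsr-null livers, left, and 4 WT livers, right, with mean and SD beside the points, a marker shape per replicate number and the low-value limit of 3.03 dashed. The groups separate for H2-Ea 1422892_s_at, H2-Ea 1422891_at and H2-Aa 1452431_s_at and overlap for the other 10.

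H2-Ea, the E alpha chain, had the smallest adjusted p of the 13 class II probe sets, at 1422892_s_at. Its values were 4.85, 4.01, 4.61 and 3.91 in the TrxR1/Gsr-null livers, against 1.92, 1.96, 2.24 and 2.52 in the WT livers. All 4 TrxR1/Gsr-null values stood above the low-value limit and all 4 WT values below it. The means were 4.34 ± 0.46 in TrxR1/Gsr-null livers and 2.16 ± 0.28 in WT livers (SD, n = 4 each). The difference was 2.18 ± 0.24 (SE; 95% interval 1.64 to 2.72), a fitted 4.53-fold, with a limma adjusted p of 0.00169. It was called with each of the 8 arrays left out in turn (difference 2.01 to 2.33). Since the WT values lie near background, the fold depends on the background estimate, and with values under the limit raised to it the difference was 1.32 (adjusted p = 0.0481). With replicates 3 and 4 of each genotype only, it was 1.88 and not called (adjusted p = 0.0594).

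The other H2-Ea probe sets did not show a difference of that size. In 1422891_at the TrxR1/Gsr-null livers had 5.05, 4.40, 4.42 and 4.37, against 3.51, 4.04, 4.12 and 4.18 in WT livers. These groups did not overlap, but the nearest values, 4.37 in TrxR1/Gsr-null replicate 4 and 4.18 in WT replicate 4, were close, and the difference of 0.60 ± 0.21 (SE) was not called (adjusted p = 0.192). In 1426202_at every liver was below the low-value limit, with 1.88 to 2.52 in TrxR1/Gsr-null livers and 1.99 to 2.90 in WT livers, and the difference was -0.20 (adjusted p = 0.704).

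The 3 H2-Ea probe sets were set against each other within each array, which removes what an array does to all of them alike. The gap 1422891_at minus 1422892_s_at averaged 0.22 ± 0.29 in TrxR1/Gsr-null livers and 1.80 ± 0.23 in WT livers (SD, n = 4 each). These gaps ran from -0.19 to 0.47 in TrxR1/Gsr-null livers and from 1.58 to 2.08 in WT livers, without overlap. The gap thus differed by -1.58 (two-sided exact permutation p = 0.0286, the smallest that 70 labellings can give, and 0.0762 after adjustment over 8 pairs). The gap 1422892_s_at minus 1426202_at averaged 2.22 ± 0.68 in TrxR1/Gsr-null livers and -0.17 ± 0.36 in WT livers, a difference of 2.38 with the same exact p and the same adjusted p. For 1422891_at minus 1426202_at the difference was 0.80 (exact permutation p = 0.0571, adjusted 0.114). Every liver was below the low-value limit in 1426202_at. Both gaps to it therefore mostly repeat the other set's own difference, 2.18 for 1422892_s_at and 0.60 for 1422891_at. No pair of probe sets passed 0.05 after adjustment. With signs flipped only within the 4 same-numbered pairs of livers, 16 labellings and a test chosen after seeing the data, no exact p can be below 0.125, and each of these 3 pairs of H2-Ea probe sets had that value.

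H2-Aa, the A alpha chain, also gave different answers in its 2 probe sets. In 1452431_s_at the TrxR1/Gsr-null livers had 7.36, 7.14, 6.46 and 7.70, against 5.81, 5.90, 4.65 and 4.09 in WT livers. The groups did not overlap, all values were above the low-value limit, and WT replicates 3 and 4 were the lowest. The means were 7.16 ± 0.52 in TrxR1/Gsr-null livers and 5.11 ± 0.89 in WT livers (SD, n = 4 each). The difference was 2.05 ± 0.43 (SE; 95% interval 1.10 to 3.01), 4.15-fold, with a limma adjusted p of 0.0346. This call was lost without TrxR1/Gsr-null replicate 1, 2 or 4 or without WT replicate 3 or 4 (adjusted p 0.0551 to 0.106, difference 1.71 to 2.06). Without WT replicates 3 and 4 together the difference was 1.31 (adjusted p = 0.0945), and within replicates 1 and 2 alone it was 1.39 (adjusted p = 0.0106). The call was also lost with replicates 3 and 4 only (2.71, adjusted p = 0.0614) and with values under the low-value limit raised to it over the whole table (adjusted p = 0.139).

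The other H2-Aa probe set, 1435290_x_at, had 9.03, 9.50, 8.96 and 9.77 in TrxR1/Gsr-null livers, against 8.54, 8.68, 9.04 and 10.14 in WT livers. WT replicate 4 was the highest of all 8 arrays here and the lowest of all 8 in 1452431_s_at. The groups overlapped and the difference was 0.22 ± 0.35 (SE; 95% interval -0.56 to 0.99, adjusted p = 0.795). The gap 1435290_x_at minus 1452431_s_at averaged 2.15 ± 0.37 in TrxR1/Gsr-null livers and 3.99 ± 1.58 in WT livers, with ranges of 1.67 to 2.50 in TrxR1/Gsr-null livers and 2.73 to 6.06 in WT livers. The difference between the gaps was -1.84 (exact permutation p = 0.0286, adjusted 0.0762), and it was -1.15 to -2.25 with 1 array left out.

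The beta chain genes were not called. H2-Ab1, the partner of H2-Aa, had 7.43, 7.98, 6.60 and 7.61 in TrxR1/Gsr-null livers at its brightest probe set, 1450648_s_at, against 7.37, 7.37, 6.16 and 7.36 in WT livers. Replicate 3 was the lowest array of both genotypes, the groups overlapped, and the difference was 0.34 ± 0.35 (SE; 95% interval -0.45 to 1.13, adjusted p = 0.672), and 0.034 without WT replicates 3 and 4. The probe set 1451721_a_at had 3.96, 4.92, 2.86 and 4.13 in TrxR1/Gsr-null livers, against 3.95, 4.13, 3.58 and 4.23 in WT livers, with a difference of -0.004 whose sign depended on the setting. The probe set 1425477_x_at had 3.33, 3.92, 2.48 and 3.35 in TrxR1/Gsr-null livers, against 3.63, 3.09, 2.41 and 2.48 in WT livers, with a difference of 0.37 (adjusted p = 0.638). In both of these sets the groups overlapped, and replicate 3 was again the lowest of each genotype. The 3 pairs of H2-Ab1 probe sets differed by -0.37 to 0.34 in their genotype difference, with adjusted exact permutation p-values from 0.366 to 0.971. H2-Eb1, the E beta chain, had 6.80, 7.24, 6.10 and 7.02 in TrxR1/Gsr-null livers, against 6.25, 6.60, 6.00 and 6.93 in WT livers. Replicate 3 was once more the lowest of each genotype, and the difference of 0.35 ± 0.28 (SE; 95% interval -0.28 to 0.97) was not called (adjusted p = 0.571).

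Cd74, the invariant chain, was bright in every liver and was not called. Its values were 9.41, 9.13, 7.49 and 9.37 in TrxR1/Gsr-null livers, against 8.45, 8.35, 8.07 and 9.29 in WT livers. TrxR1/Gsr-null replicate 3 lay below all other livers, and the remaining TrxR1/Gsr-null livers lay above WT replicates 1 to 3 but around WT replicate 4. The means were 8.85 ± 0.92 in TrxR1/Gsr-null livers and 8.54 ± 0.52 in WT livers (SD, n = 4 each), and the difference of 0.31 ± 0.43 (SE; 95% interval -0.67 to 1.28) had an adjusted p of 0.765. It was 0.76 without TrxR1/Gsr-null replicate 3 (adjusted p = 0.244). Within replicates 1 and 2 alone it was 0.87 and called (adjusted p = 0.0434), and within replicates 3 and 4 alone -0.25 (adjusted p = 0.866).

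The peptide exchange factor H2-DM was at or near the low-value limit. H2-DMa had 3.12, 2.99, 1.97 and 3.09 in TrxR1/Gsr-null livers, against 3.36, 3.70, 2.54 and 2.33 in WT livers, overlapping groups with a difference of -0.19 (adjusted p = 0.830). The 2 probe sets that the annotation pairs with both H2-DMb1 and H2-DMb2 cannot be assigned to either gene and are not counted among the 13. One, 1449580_s_at, had 3.65, 3.59, 3.62 and 3.63 in TrxR1/Gsr-null livers, against 3.53, 2.99, 2.98 and 2.73 in WT livers. The groups did not overlap, and the difference of 0.56 ± 0.18 (SE) was not called (adjusted p = 0.145). The other, 1418638_at, averaged 3.80 ± 0.25 in TrxR1/Gsr-null livers and 3.47 ± 0.32 in WT livers (SD, n = 4 each) and was not called (adjusted p = 0.438).

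Ciita was under the low-value limit in all 8 livers in both of its probe sets. In 1421211_a_at the means were 2.55 ± 0.12 in TrxR1/Gsr-null livers and 2.53 ± 0.32 in WT livers, and in 1421210_at they were 2.25 ± 0.21 in TrxR1/Gsr-null livers and 2.22 ± 0.35 in WT livers (SD, n = 4 each). The differences were 0.02 and 0.03 (adjusted p = 0.975 and 0.961), and a difference of Ciita was not detectable at these signals.

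**Figure D2:**
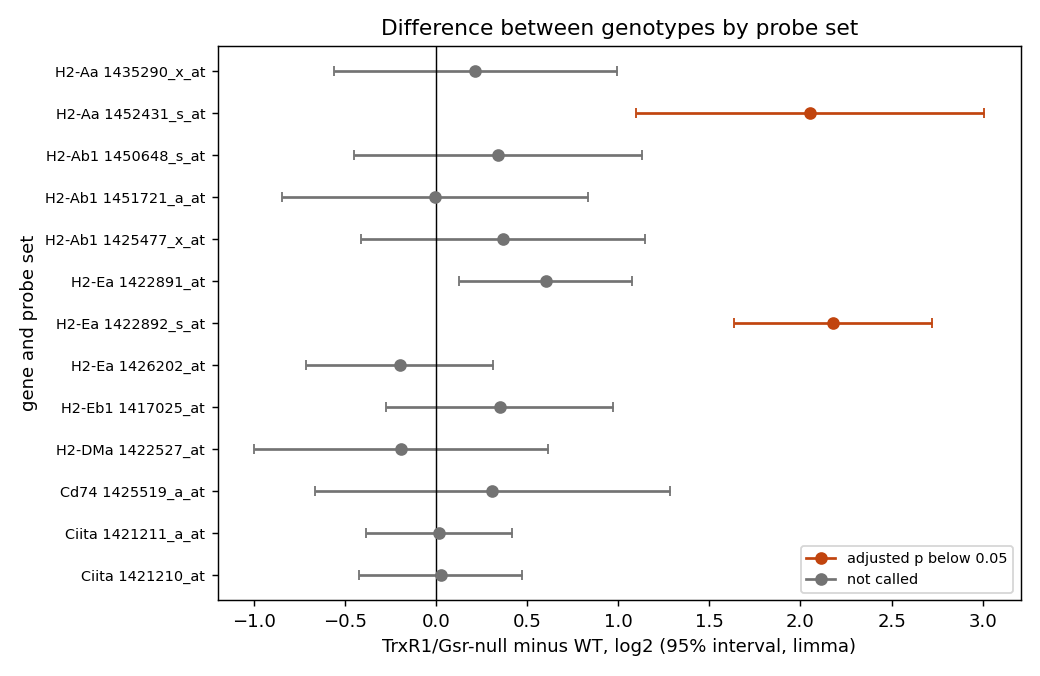
Difference between TrxR1/Gsr-null and WT livers on the log2 scale (horizontal axis) with the 95% interval of the limma fit for each class II probe set (vertical axis), coloured where the adjusted p was below 0.05. H2-Ea 1422892_s_at (2.18) and H2-Aa 1452431_s_at (2.05) are called, and the intervals of the others, H2-Ea 1422891_at excepted, include 0.

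Replicate 3 of both genotypes stood low in several members. Over the whole array it also had the lowest median of each genotype, 3.66 in TrxR1/Gsr-null livers and 3.56 in WT livers. The part of this in the member values was not tested. Of the 10 member probe sets above the low-value limit on at least 1 array, TrxR1/Gsr-null replicate 3 was the lowest of its group in 8 and WT replicate 3 the lowest of its group in 5. These probe sets share the arrays, so the counts are a description of these livers. In bulk liver RNA, fewer cells of a type and less RNA per cell cannot be told apart. By Pearson correlation over the 8 arrays and 8037 genes, the genes most like Cd74 were Arrb2 (r = 0.954), Ascc2 (0.952), Polr3e (0.920), Plscr3 (0.915) and Pus3 (0.906). Those most like H2-Aa at 1435290_x_at were Ppp2r1b (0.974), Tfg (0.940), Mt3 (0.938), Actr1a (0.934) and Fnbp1 (0.931). All points of these correlations share the same arrays and scaling, and the lists had no gene in common.

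Among the factors of class II promoters, Rfx5, the DNA-binding subunit of the RFX complex at the X box, was called higher. Its values were 6.46, 6.52, 5.99 and 7.16 in TrxR1/Gsr-null livers, against 5.26, 5.25, 4.80 and 4.74 in WT livers, and all 4 TrxR1/Gsr-null livers stood above all WT livers. The difference was 1.52 ± 0.25 (SE), 2.87-fold, with a limma adjusted p of 0.0120, and the call held in all 8 fits that left out 1 array. It was not called without WT replicates 3 and 4 (1.28, adjusted p = 0.0836) or with replicates 3 and 4 only (1.81, adjusted p = 0.096), nor with low values raised to the limit (adjusted p = 0.0549). Rfx5 was the only call among 11 measured promoter factors, beside 2.32% of all genes called higher and 1.04% lower with 1 probe set per gene, and the median difference of the 11 was 0.04, beside -0.003 over all 12393 genes. The other RFX subunits had differences of -0.05 (Rfxank, adjusted p = 0.946) and -0.30 (Rfxap, adjusted p = 0.477). The NF-Y subunits that bind the Y box had 0.07 (Nfya), 0.27 (Nfyb) and -0.38 (Nfyc), none of them called.

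Genes that process antigen for class II were not called. Of 8 measured, 0 were higher and 0 lower, with a median difference of -0.08 and 0 with an unadjusted limma p under 0.05. The first 3 as listed were H2-Oa, a subunit of the inhibitor of H2-DM (difference -0.07), H2-DMb2, a DM beta chain (0.01), and Ctss, the protease cathepsin S that trims the invariant chain (-0.17). H2-Oa was under the low-value limit in every liver, and H2-DMb2 was above it in 6 livers. Of 15 measured genes of the interferon gamma response, the signal that induces Ciita, 0 were called and 1 had an unadjusted p under 0.05, with a median of 0.04. The first 3 were the transcription factor Irf1 (-0.27) and the guanylate-binding proteins Gbp2 (-0.52) and Gbp3 (-0.20). Of the 15 differences 8 were positive and 7 negative. Among 7 T cell costimulation genes 0 were called and 1 had an unadjusted p under 0.05, with a median of 0.20. Of the 7, 1 was above the low-value limit in every liver and 1 in none. The first 3, Cd80, Cd86 and Cd40, had differences of -0.55, -0.13 and -0.46, and the other 4 differences were positive. Cd80 was 5.27 in WT replicate 4, against 2.87, 2.61 and 3.70 in WT replicates 1 to 3.

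Markers of cells that carry class II molecules, of T and NK cells, of leukocytes in general and of hepatocytes were given the same test. Of 12 dendritic cell markers 0 were called and 2 had an unadjusted limma p under 0.05. Their median was 0.09, with 3 above the low-value limit in every liver and 5 in none. Their summed linear level ranged from 160.3 to 199.9 in TrxR1/Gsr-null livers and from 164.7 to 297.0 in WT livers. Bst2 was the brightest of the 12 in every liver and weighs most in that sum. It had 5.51 to 6.49 in TrxR1/Gsr-null livers and 6.17 to 7.53 in WT livers. Its difference was -0.86 (adjusted p = 0.225), while 7 of the 12 differences were positive. The sum is therefore not a level of the list as a whole. The integrin Itgax (0.43) was under the limit in all 8 livers, the receptor Flt3 (-0.06) above it in 2, and the transcription factor Zbtb46 (0.28) above it in all. Of 11 B cell markers 0 were called and 0 had an unadjusted p under 0.05, with 2 above the limit in every liver and 6 in none. Their summed level was 70.5 to 86.1 in TrxR1/Gsr-null livers and 71.6 to 81.4 in WT livers. The first 3 were the surface protein Ms4a1 (0.03) and the antigen receptor subunits Cd79a (0.06), under the limit in every liver, and Cd79b (0.004). Of 16 Kupffer cell and macrophage markers 0 were called and 4 had an unadjusted p under 0.05, with a median of -0.06 and a summed level of 6521 to 8988 in TrxR1/Gsr-null livers and 7498 to 12371 in WT livers. The first 3 were the Kupffer cell lectin Clec4f (-0.49), the complement receptor Vsig4 (-0.51) and the macrophage protein Cd5l (-0.15), with adjusted p = 0.207, 0.262 and 0.781. Every TrxR1/Gsr-null liver was below every WT liver in Clec4f and Vsig4 and in no other of the 16, beside 4.37% of all probe sets. Of the 16 differences 8 were positive. Of 9 liver endothelial markers 0 were called and 1 had an unadjusted p under 0.05, with a median of -0.37. Their summed level was 2614 to 4069 in TrxR1/Gsr-null livers and 3150 to 4282 in WT livers. The first 3 were Stab2 (-0.65), Clec4g (-0.01) and Lyve1 (0.75). Lyve1 had the only positive difference of the 9, and 8 were negative. In Stab2 alone every TrxR1/Gsr-null liver was below every WT liver (limma adjusted p = 0.0816), beside 4.37% of all probe sets. Of 9 T and NK cell markers 0 were called and 1 had an unadjusted p under 0.05, with a median of -0.16. Only 1 of the 9 was above the low-value limit in every liver and 3 in none. Their summed level, largely of such low values, was 61.3 to 66.2 in TrxR1/Gsr-null livers and 65.9 to 81.0 in WT livers. The T cell receptor subunits Cd3e, Cd3d and Cd3g had differences of -0.21, -0.24 and 0.10. Cd3e was under the limit in every liver, and Cd3d and Cd3g were above it in 1 liver each. Of 8 general leukocyte markers only Cd52, a small surface glycoprotein, was called, lower by a difference of -0.80 (adjusted p = 0.0361), and the call was lost in 7 of the 8 fits with 1 array left out (adjusted p up to 0.106) and without WT replicates 3 and 4 (adjusted p = 0.0554). Their summed level was 1031 to 1125 in TrxR1/Gsr-null livers and 1032 to 1578 in WT livers. The summed ranges of the dendritic, B cell, Kupffer, T and NK, leukocyte and endothelial lists overlapped between the genotypes. The 7 measured hepatocyte markers, the cells that make up most of the tissue, had a summed level of 41395 to 59703 in TrxR1/Gsr-null livers and 61844 to 73155 in WT livers, a median of -0.34 and 0 calls, with 2 under an unadjusted p of 0.05. The secreted proteins Alb, Ttr and Apoa1 had differences of -0.48, -0.24 and -0.32. The summed range of the hepatocyte list did not overlap between the genotypes. Alb, Ttr and Apoa1 were on average its brightest genes and weigh most in the sum. All 7 differences were negative. In Ttr alone every TrxR1/Gsr-null liver was below every WT liver, beside 4.37% of all probe sets. The part of the hepatocyte markers in the class II results was not tested.

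**Figure D3:**
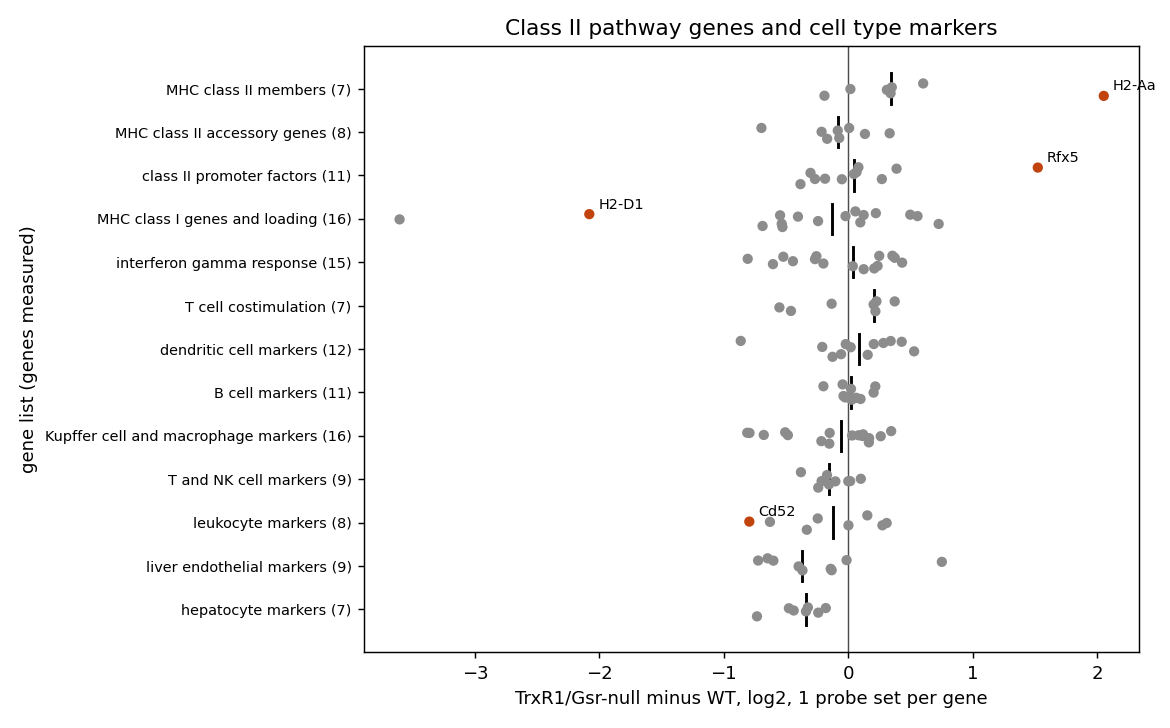
Difference between TrxR1/Gsr-null and WT livers on the log2 scale (horizontal axis) for each measured gene of the class II pathway lists and cell type marker lists (vertical axis, number measured in brackets), with 1 probe set per gene, list medians as black bars and called genes coloured and named. H2-Aa (2.05) and Rfx5 (1.52) are called higher and H2-D1 (-2.08) and Cd52 (-0.80) lower.

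The class I heavy chain genes, which lie on the same chromosome as the H2 class II genes, also gave different answers in different probe sets. Of 16 measured class I and loading genes, H2-D1, a heavy chain, was called lower at 1426324_at and 0 were called higher, with a median difference of -0.13. An unadjusted p under 0.05 was reached by 6 of the 16. In 4 of them, H2-K1, H2-D1, H2-Q10 and H2-M3, every TrxR1/Gsr-null liver was below every WT liver, beside 4.37% of all probe sets. The rest were higher on average. In Tap2 (0.56) every TrxR1/Gsr-null liver was above every WT liver, beside 6.83% of all probe sets, and in Psme1 (0.50) the groups overlapped. H2-D1 at 1426324_at had 3.43, 3.59, 3.24 and 3.73 in TrxR1/Gsr-null livers, against 5.76, 5.80, 5.40 and 5.37 in WT livers. Its call held in all 21 alternative settings run. Another H2-D1 probe set, 1450170_x_at, picked out after its values were seen, had 11.38, 10.16, 10.07 and 8.98 in TrxR1/Gsr-null livers, against 3.89, 4.52, 5.25 and 7.03 in WT livers. Its difference was 4.98 and called higher (adjusted p = 0.00474), so 2 probe sets of 1 gene were called in opposite directions. Of all 9 H2-D1 probe sets, 5 were lower in every TrxR1/Gsr-null liver than in any WT liver (differences -3.69 to -0.48, 1 of them called), 1 was higher and 3 overlapped. H2-K1, another heavy chain, had 6.36, 9.92, 6.998 and 10.91 in TrxR1/Gsr-null livers at 1425336_x_at, against 11.82, 11.66, 12.35 and 12.77 in WT livers. All TrxR1/Gsr-null livers were lower, and replicates 1 and 3 of that genotype stood far below its replicates 2 and 4. All 4 H2-K1 probe sets were lower without overlap (differences -3.60 to -1.27), and 1427746_x_at (-1.27, adjusted p = 0.00223) and 1450534_x_at (-1.32, adjusted p = 0.0170) were called. In H2-Ea 1422892_s_at the same replicates 1 and 3 were the higher TrxR1/Gsr-null livers (4.85 and 4.61, against 4.01 and 3.91 in replicates 2 and 4 of that genotype), a division made of 2 livers each that was not tested. In H2-Aa 1452431_s_at replicates 1 and 3 lay on both sides of replicate 2.

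H2 genes are known to vary in sequence between mouse strains more than most genes, and an array value reports how well the RNA of a gene binds probes of a given sequence. With these values a difference in the sequence under a probe set and a difference in mRNA level cannot be told apart, and which H2 haplotype the livers carry was not tested. Nnt, the mitochondrial transhydrogenase in which C57BL/6J mice are known to carry a deletion, was on average higher in TrxR1/Gsr-null livers at 1416105_at, with 10.21, 10.06, 10.17 and 9.83, against 8.66, 8.64, 9.45 and 8.83 in WT livers (difference 1.17, adjusted p = 0.0152). All TrxR1/Gsr-null livers were above all WT livers there, while at 1456573_x_at the groups overlapped and the difference of 1.24 was not called (adjusted p = 0.121). The part of strain in the class II results was not tested.

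**Figure D4:**
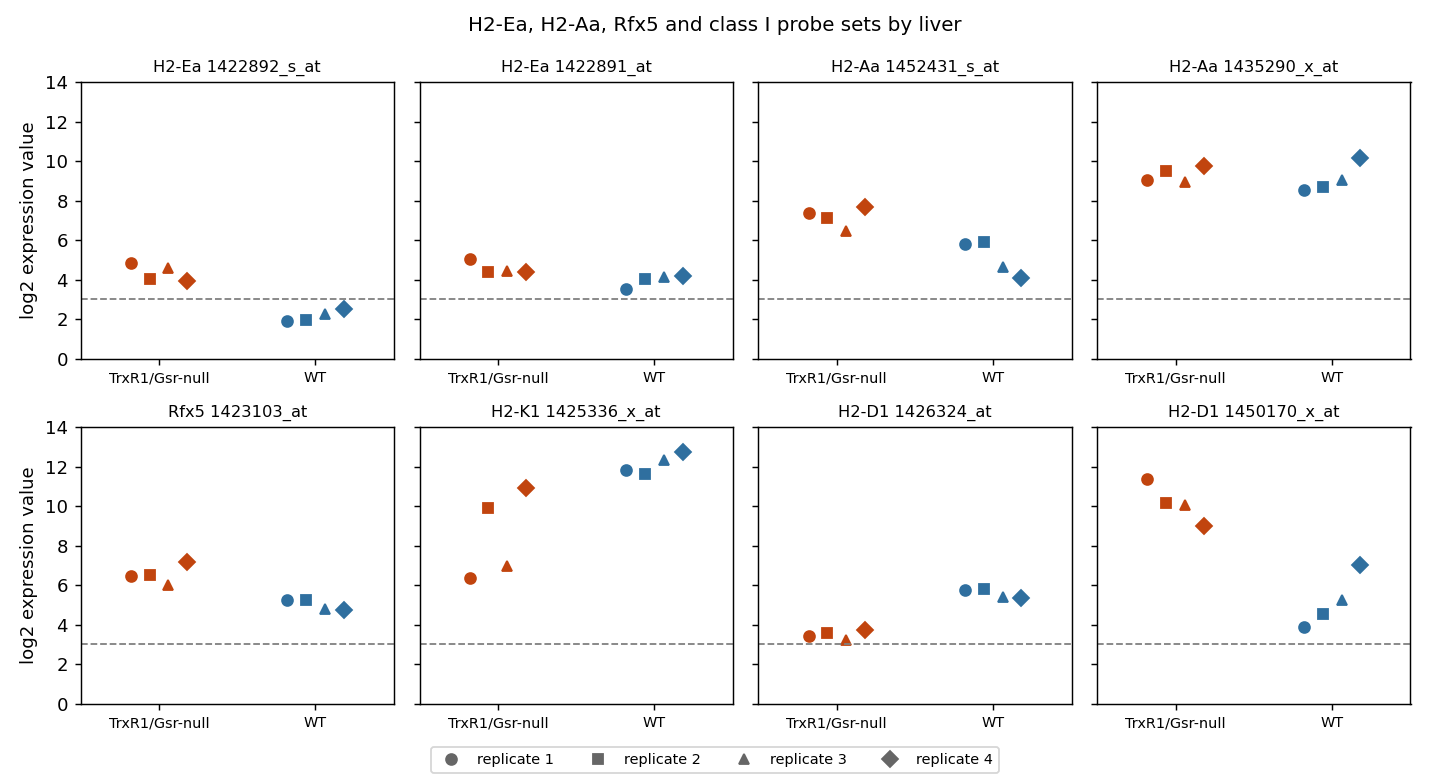
Log2 expression values (vertical axes) of 8 probe sets of H2-Ea, H2-Aa, Rfx5, H2-K1 and H2-D1 in each liver, TrxR1/Gsr-null left and WT right, with a marker shape per replicate number and the low-value limit of 3.03 dashed. H2-D1 is lower in TrxR1/Gsr-null livers at 1426324_at and higher at 1450170_x_at, and the groups overlap in H2-Aa 1435290_x_at alone of the 8.

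With 1 probe set per gene, few genes around the H2 class II genes were called. Of 48 measured genes on chromosome 17 that lie between the H2 members or within 40 gene starts of them, 0 were called higher and 1 lower (2.08%), beside 4 higher and 11 lower of 544 measured elsewhere on that chromosome (2.76%). The median difference of the 48 was -0.11. The call was Angptl4, a secreted inhibitor of lipoprotein lipase at the edge of the region, with a difference of -2.03 (adjusted p = 0.0413, up to 0.121 with 1 array left out and 0.210 without WT replicates 3 and 4). H2-K1 lies in the region and is not counted as called, because the probe set that stands for it was not (difference -3.60, adjusted p = 0.0735), while its 2 called sets are given above, and H2-D1 lies outside it.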

How the data were processed

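Liver RNA of 4 TrxR1/Gsr-null and 4 WT mice was measured on Affymetrix arrays, 1 per mouse. Total RNA, per the labels' protocols, came from a RiboPure kit and was labelled with biotin by a MessageAmp kit. Each deposited value is a log2 level of a probe set on an array, computed by the authors with GCRMA per the submitters' processing notes. For GCRMA, the version and options were not given in the sources used here. No label names the scale, and values from 0.53 to 14.61 were taken as log2. GCRMA draws values near background together. Arrays have no sampling depth, and precision is limited by their number.

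Of 22690 probe sets, 64 controls were left out. The platform annotation pairs 20380 with 1 gene symbol, 691 with several and 1555 with none, and symbols were updated through RefSeq (GRCm38.p6, 20351 identifiers matched). Of the H2 members 4 had RefSeq promoter windows, Ciita had none, and Cd74 was not looked up. The genotype difference was fitted in limma (version 3.58.1, under R version 4.3.3; lmFit, then eBayes, default settings, no covariates, no filter on low values, two-sided, Benjamini-Hochberg over all 22626 probe sets). Gene lists used 1 probe set per gene, the brightest over 8 arrays with _x_at sets set aside where the gene had another kind (H2-K1 had none), from the same fit. A summed level is the sum over a list of 2 to the power of the log2 value. The share of all genes with an unadjusted p under 0.05 was not counted, so those counts have no background beside them. Probe set names ending in _s_at or _x_at mark probes that can match more than 1 transcript. The fit was tested on simulated data. Pairs of probe sets of 1 gene were compared by an exact permutation test.

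All 13 member probe sets are named, with Txnrd1, Gsr and Nnt as checks, the called genes of each list or, where none was called, the first 3 measured, and the called genes near the H2 members. Genes beyond this rule were chosen after their values were seen. The members and lists were chosen with earlier results of these data known. The replicate numbers come from the titles. Deviations from the group means of the 4 same-numbered pairs correlated at 0.22, 0.39, 0.25 and 0.27. Of the arrays, 6 correlated best with their own number and the others did not. Whether the numbers mark pairs of livers was not tested, and correlations of differently numbered arrays are not given. Such pairs were also not told apart from a split of replicates 1 and 2 against 3 and 4. The number and that split were each used as a block in alternative settings only. The labels call the arrays biological replicates and name no batch. No 2 arrays were identical (highest correlation 0.994). Alternatives were the filter and floor for low values, the scaling, the variance prior, array weights, both blocks, subsets of the replicates, the choice of probe sets and leaving out each array.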

Additional observations from a re-analysis of the deposited data

Results flagged for a closer look

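Each group of 4 values of the 13 member probe sets and the 2 probe sets shared by H2-DMb1 and H2-DMb2 was searched for a value far from the other 3, measured as its gap to the nearest divided by the range of the group. Of 30 groups 4 had such a value, and chance gives about 1 in 20. Cd74 was 7.49 in TrxR1/Gsr-null replicate 3, with the other livers of that genotype at 9.13 to 9.41. H2-DMa was 1.97 in the same liver, with the others at 2.99 to 3.12. H2-Ea at 1422891_at was 5.05 in TrxR1/Gsr-null replicate 1, with the others at 4.37 to 4.42. H2-Ab1 at 1450648_s_at was 6.16 in WT replicate 3, with the other WT livers at 7.36 to 7.37.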

How the results depend on the processing

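The count of 2 class II probe sets called higher became 1 with values under the low-value limit raised to it, without WT replicates 3 and 4 or with 1 probe set per gene (7 genes), and 0 with replicates 3 and 4 only or without sets ending in _x_at or _s_at (8 left), it was 1 to 2 with 1 array left out, and 3 with replicates 1 and 2 only. No member was called lower in any setting. Over all probe sets the 472 higher and 201 lower calls became 277 and 123 with raised values, 880 and 590 with array weights, 1040 and 528 with replicates 1 and 2 against 3 and 4 as a block, 178 and 29 with replicates 3 and 4 only, and, over the fits that left out 1 array, 254 to 513 higher and 103 to 172 lower. Higher calls were 247 without WT replicates 3 and 4 and 308 with 1 probe set per gene. Lower calls were 307 after quantile normalization and 377 with replicates 1 and 2 only. With the replicate block lower calls were 315, and that block changed no member's call. The median member difference was 0.14 to 0.58 with 1 array left out and 0.022 without _x_at and _s_at sets. With raised values the gap of H2-Ea 1422891_at minus 1422892_s_at differed by -0.72 and that of 1422892_s_at minus 1426202_at by 1.32. Raised values gave no difference for sets wholly under the limit. Signs turned only in uncalled probe sets. H2-Aa 1435290_x_at was -0.22, H2-DMa 0.10 and Cd74 -0.25 with replicates 3 and 4 only. Without WT replicates 3 and 4, H2-Ab1 1425477_x_at was -0.089, H2-Ea 1426202_at 0.087 and Ciita 1421210_at -0.17. H2-Ab1 1451721_a_at was 0.037 with raised values, 0.27 with array weights and 0.40 with replicates 1 and 2 only. With arrays centred on their medians Ciita 1421211_a_at was -0.049 and Ciita 1421210_at -0.038, and the last was -0.069 with array weights. With 1 array left out the ranges were -0.32 to 0.37 for H2-Ab1 1451721_a_at, -0.41 to 0.082 for H2-DMa, -0.10 to 0.11 for Ciita 1421211_a_at and -0.14 to 0.15 for Ciita 1421210_at. The causes of these moves were not tested. Signal near background limits what H2-DMa, Ciita, H2-Ea 1426202_at and the WT values of H2-Ea 1422892_s_at can show.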
